A study of Homo sapiens with 4 samples.

Results

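MAP kinase phosphatases and Sprouty proteins switch off growth and stress signals, and their messenger RNAs were examined in the human hepatocellular carcinoma cell line Huh7 after exposure to hydrogen peroxide (H2O2). The set held 10 genes chosen by name, the phosphatase genes DUSP1, DUSP2, DUSP4, DUSP5, DUSP6, DUSP8, DUSP10 and DUSP16 and the inhibitor genes SPRY2 and SPRY4, out of 42067 gene names in the deposited tables. In the H2O2 group, cells were kept for 4 days in medium with 300 µM H2O2, and in the mock group they received mock treatment for the same time. The medium was changed daily in both groups, all cells were of the same line, and each group had 2 libraries. By their titles, each group consisted of a library H and a library Q. What H and Q stand for is not stated, and nothing in the labels says that the libraries came from separate cultures, so p-values measure the spread between these libraries, which may be technical.

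MAP kinases are the last kinases of cascades that run from RAS and RAF to ERK, and from stress sensors to JNK and p38. Dual-specificity phosphatases remove the phosphates from both the threonine and the tyrosine that activate a MAP kinase, and Sprouty proteins act higher up, between receptor tyrosine kinases and RAF. Many of these genes are themselves transcribed in response to ERK, so that their messenger RNA level is widely read as a feedback output of the pathway. Peroxide is known to act on the same cascades, through receptor signalling and through the redox-sensitive kinase encoded by MAP3K5, and the catalytic cysteine of the phosphatases can be oxidised, which a messenger RNA measurement does not record.

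The libraries held 83462944 and 86492977 mapped mates in H2O2 H and Q, and 78126878 and 88409567 in mock H and Q. Every one of the 10 genes passed the filter of at least 10 reads in at least 2 libraries, as did 27702 genes in all. By edgeR's quasi-likelihood test 0 of these 27702 genes passed a Benjamini-Hochberg adjusted p of 5%, while 860 higher and 1039 lower genes had an unadjusted p under 0.05, and DESeq2 on the same reads called 33 higher and 105 lower. In TMM-normalised CPM, read counts scaled to the effective library size, 10 hepatocyte markers summed to 21589 and 12405 CPM in H2O2 H and Q, against 18609 and 6012 CPM in mock H and Q. Stromal and endothelial markers summed to at most 26.8 and 3.24 CPM in any library. The 7 blood cell markers summed to between 417 and 618 CPM, nearly all of it LYZ, with PTPRC at most 0.272 CPM.

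After 4 days of H2O2 none of the 10 genes differed from mock by more than the test could separate from the spread between libraries. That spread includes the difference between letters H and Q, which the test did not model. With the letter as a block none of the 10 passed either (edgeR, lowest adjusted p = 0.262). In these bulk libraries fewer cells of a kind and less RNA per cell cannot be told apart. Of the 10, 8 had a fold change above 0, where 47.2% of all genes tested did, and their median log2 fold change was 0.15, beside −0.03 over all genes tested. DUSP1 had the largest upward difference (0.80) and DUSP2, which was near the limit of detection, the largest downward one (−0.98). The count past the test was 0 of 10 in both directions (edgeR, lowest adjusted p = 0.728; background 0% higher and 0% lower). At an unadjusted p under 0.05 the edgeR count was again 0 of 10, beside 3.1% higher and 3.75% lower over all genes. At that level DESeq2 counted 1 of 10, beside 1904 of 27702 genes. EdgeR counted 1 of 10 without the filter (2381 of 39529 genes) and 1 of 10 with the letter as a block (5223 of 27702). After adjustment DESeq2 and limma also called 0 of 10. Mock H had the lowest level of the 4 libraries for 9 of the 10 genes, while it was lowest for 26.2% of all genes tested. That count was taken after the values had been seen.

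**Figure D1:**
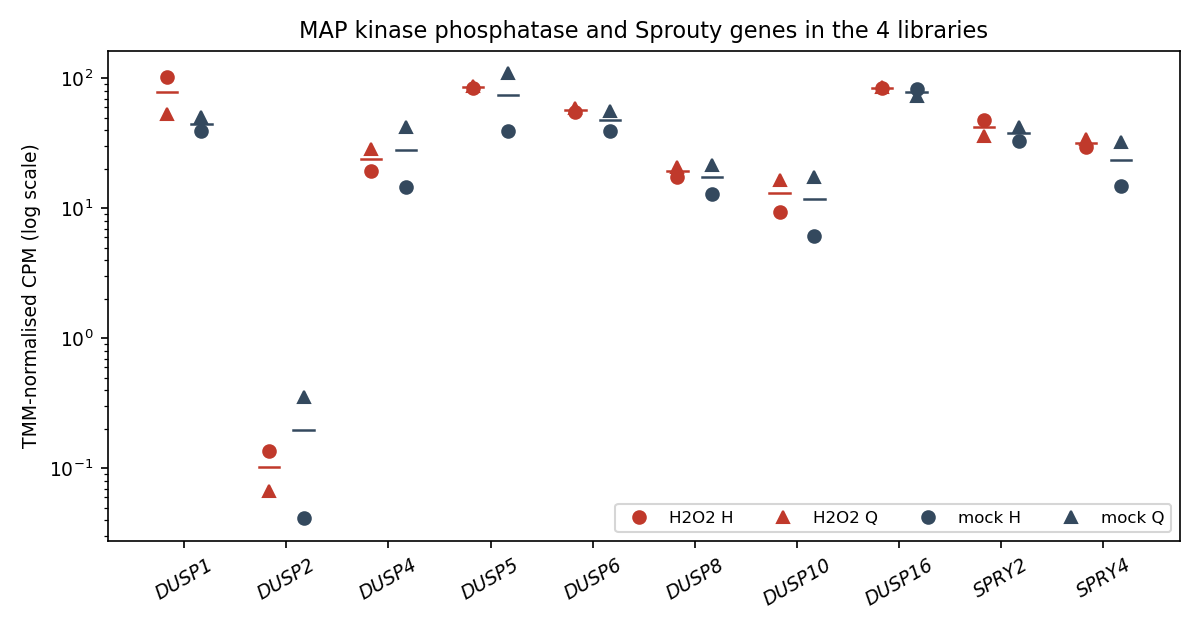
Each point is the level of a gene in 1 library, in TMM-normalised CPM on a log axis, with H2O2 libraries in red left of mock libraries in blue, circles for letter H and triangles for letter Q, and short lines for group means. The blue circle, mock H, lies below the other 3 libraries for every gene but DUSP16, and the 2 H2O2 points of DUSP5, DUSP6 and SPRY4 lie close together between or near the mock points.

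Among the nuclear phosphatases that respond to growth factors and stress, DUSP1 dephosphorylates p38, JNK and ERK and is a classical immediate early gene. It measured 103 and 53.0 CPM in H2O2 H and Q, against 39.4 and 50.3 CPM in mock H and Q. Both H2O2 values lay above both mock values, but H2O2 Q exceeded mock Q by a small margin, and H2O2 H stood apart from the other 3 libraries. The means were 78.1 ± 35.5 CPM in H2O2 and 44.8 ± 7.72 CPM in mock (SD, n = 2 each), a log2 fold change of 0.80 (SE 0.36, edgeR adjusted p = 0.728). Without H2O2 H the fold change was 0.24, and without H2O2 Q it was 1.21.

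DUSP5 encodes a nuclear phosphatase specific for ERK and is a direct output of ERK signalling. It measured 84.2 and 87.3 CPM in H2O2 H and Q, against 39.2 and 110 CPM in mock H and Q, so that the H2O2 libraries were nearly equal and lay between the mock libraries. The log2 fold change was 0.20 (SE 0.48, adjusted p = 0.927). DUSP4, a nuclear phosphatase of ERK and JNK, measured 19.3 and 28.9 CPM in H2O2 H and Q, against 14.6 and 42.0 CPM in mock H and Q. Its groups overlapped in the same way, with the H2O2 values inside the mock range (−0.23, SE 0.53, adjusted p = 0.92). DUSP2, known mainly from activated lymphocytes, had 14 and 8 reads in H2O2 H and Q, against 4 and 43 reads in mock H and Q. The exact 95% Poisson intervals, which cover counting error only, were 7.65 to 23.5 and 3.45 to 15.8 reads in the H2O2 libraries, against 1.09 to 10.2 and 31.1 to 57.9 reads in the mock libraries. These intervals take each deposited read as an independent count, and how reads were counted is not stated. On that assumption the mock libraries differed from each other beyond counting error. The group difference of −0.98 had an SE of 1.04 (edgeR adjusted p = 0.839).

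DUSP6 encodes the cytoplasmic phosphatase specific for ERK, a standard feedback reporter of that kinase. It measured 55.6 and 59.5 CPM in H2O2 H and Q, against 39.1 and 56.6 CPM in mock H and Q. Mock H was low and the other 3 libraries were within a narrow range (log2 fold change 0.27, SE 0.24, adjusted p = 0.816). A second DUSP6 transcript model, a shorter isoform, was counted at 83.1% of the first in both H2O2 libraries, against 85.7% and 82.1% in mock H and Q. Because isoform rows share reads these percentages are not isoform shares, and they differed little between libraries.

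The phosphatases directed mainly at JNK and p38 had log2 fold changes of 0.12 to 0.15 and did not pass the test. DUSP16, which acts on JNK, was the steadiest of the 10 genes, with 84.0 and 85.8 CPM in H2O2 H and Q, against 83.2 and 73.4 CPM in mock H and Q. Its H2O2 values lay above both mock values by a small margin (0.12, SE 0.18, adjusted p = 0.885), and it was the 1 gene of the 10 that was lowest in mock Q, as were 26.3% of all genes tested. DUSP8, a phosphatase of JNK and p38, measured 17.6 and 20.9 CPM in H2O2 H and Q, against 12.9 and 21.7 CPM in mock H and Q, with overlapping groups (0.15, SE 0.31, adjusted p = 0.914). DUSP10, which acts on p38 and JNK, measured 9.45 and 16.6 CPM in H2O2 H and Q, against 6.10 and 17.4 CPM in mock H and Q. In both groups the library of letter Q was the higher one for DUSP10, and the groups overlapped (0.15, SE 0.56, adjusted p = 0.956). Its fold change was −0.42 without mock H and 1.09 without mock Q. DUSP1 and DUSP16 were the 2 of 10 genes with both H2O2 libraries above both mock libraries, as were 18.1% of all genes tested. The reverse was seen for 0 of the 10, against 21.3% of all genes.

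The Sprouty genes encode inhibitors that are phosphorylated downstream of fibroblast growth factor and other receptors and restrain the activation of ERK. SPRY4 measured 29.8 and 34.0 CPM in H2O2 H and Q, against 14.8 and 32.5 CPM in mock H and Q. As for DUSP6, mock H was low and the other libraries were close to each other (0.43, SE 0.40, adjusted p = 0.817). SPRY2 measured 48.1 and 36.1 CPM in H2O2 H and Q, against 33.0 and 42.5 CPM in mock H and Q. Here the order of the letters differed between the groups, with H the higher library in H2O2 and Q the higher one in mock (0.16, SE 0.24, adjusted p = 0.885). Reads of SPRY4 and of the long noncoding RNA SPRY4-IT1, which lies within it, cannot be told apart where strand was not used, and those of DUSP8 may be shared with KRTAP5-AS1 and with its pseudogenes DUSP8P1, DUSP8P2 and DUSP8P5. DUSP5 has the pseudogenes DUSP5P1 and DUSP5P2, and the readthrough gene POC1B-DUSP6 overlaps DUSP6.

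Promoter sequence from RefSeq (GRCh38.p14) was matched for 8 of the 10 genes, and 250 bases upstream of each start were read. DUSP4 and DUSP5 were not matched. DUSP1 and DUSP8 are shown because they were the 2 members that held the full cyclic AMP response element (CRE) TGACGTCA, the site of CREB and ATF factors, and SPRY4 for contrast, because it holds the CRE core without the full element. The sequences run 5′ to 3′ on the minus strand, over chr5:172771196-172771445 for DUSP1, chr11:1572272-1572521 for DUSP8 and chr5:142324248-142324497 for SPRY4. Capitals mark the CRE, its core TGACG, the E-box CACGTG, the antioxidant response element core TGACNNNGC and the TATA box TATAAA, each searched on both strands.
DUSP1: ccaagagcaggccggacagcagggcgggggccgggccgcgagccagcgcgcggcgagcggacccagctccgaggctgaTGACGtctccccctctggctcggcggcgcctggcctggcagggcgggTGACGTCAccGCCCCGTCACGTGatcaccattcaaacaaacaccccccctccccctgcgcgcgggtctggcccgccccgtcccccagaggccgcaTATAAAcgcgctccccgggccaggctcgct
DUSP8: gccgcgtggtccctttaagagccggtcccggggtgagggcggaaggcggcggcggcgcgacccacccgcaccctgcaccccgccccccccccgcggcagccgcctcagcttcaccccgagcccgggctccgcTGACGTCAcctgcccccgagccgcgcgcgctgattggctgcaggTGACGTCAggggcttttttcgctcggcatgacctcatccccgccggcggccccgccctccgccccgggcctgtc
SPRY4: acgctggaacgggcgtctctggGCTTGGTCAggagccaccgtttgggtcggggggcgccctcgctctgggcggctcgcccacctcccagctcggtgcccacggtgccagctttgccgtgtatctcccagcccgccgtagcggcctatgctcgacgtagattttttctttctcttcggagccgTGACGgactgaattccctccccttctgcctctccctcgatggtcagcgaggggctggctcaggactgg
The CRE of DUSP1 began 125 bases before the start and those of DUSP8 118 and 74 bases before it. A CRE was present in 1.65% of 35116 promoter entries and a pair or more in 0.0541%. CRE cores, some of them inside the full elements, occurred in DUSP1, DUSP8, SPRY2 and SPRY4, and in 21.2% of all entries. In DUSP1 a CRE core 111 bases, an E-box 108 bases and the reverse of an antioxidant response element core 115 bases before the start overlapped each other, and a TATA box began 30 bases before it. The E-box, also found in DUSP2, was present in 6.34% of entries, the antioxidant core, also found in SPRY4, in 10.9%, and the TATA box in 10.7%. The ETS site CCGGAA, found in 14.5% of entries, occurred in SPRY2, while the AP-1 site TGANTCA (6.57%) and the CArG box (1.16%) were in none of these windows. With the CRE in both, DUSP1 and DUSP8 had log2 fold changes of 0.80 and 0.15, and the matches are a description of sequence alone.

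Within letter H all 10 genes were higher in H2O2 than in mock, beside 13541 of all 27702 genes tested. Within letter Q 4 of 10 were, beside 13620 of 27702. Several log2 ratios within letter Q lay near 0: DUSP1 (0.08), DUSP6 (0.07), SPRY4 (0.07), DUSP8 (−0.06) and DUSP10 (−0.07). These ratios rest on 1 library a side and carry no test. Within letter H, 5 of 10 were higher by 1.5-fold or more, namely DUSP1 (log2 ratio 1.39), DUSP5 (1.10), SPRY4 (1.01), DUSP2 (0.75) and DUSP10 (0.62), where 11.4% of all genes tested were. None, 0 of 10, was lower by that much (15.1% of all genes). Within letter Q, 0 of 10 were higher by that much (7.89% of all genes), and DUSP2 was lower by it (−1.45, 9.82% of all genes). The DUSP2 ratios rest on 14 against 4 reads in letter H and 8 against 43 reads in letter Q. Its levels were 0.041 to 0.355 CPM, so the 0.1 CPM added to each level weighs on both ratios. The largest upward ratio within letter Q was that of DUSP16 (0.23). The 10 genes had a median ratio of 0.58 in letter H and of −0.06 in letter Q, and over all genes tested both medians were −0.01.

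The letters also differed within each group, with 1 library a side and no test. In H2O2, 1 of 10 genes (DUSP10) had at least a 1.5-fold higher level in Q than in H, beside 13.4% of all genes tested. In mock this held for 6 of 10, beside 15.3% of all genes. For these 6 the log2 ratio of Q over H in H2O2 was −0.51 for DUSP2, 0.58 for DUSP4, 0.81 for DUSP10, 0.05 for DUSP5, 0.19 for SPRY4 and 0.25 for DUSP8. In mock it was 1.69 for DUSP2, 1.52 for DUSP4, 1.49 for DUSP10, 1.48 for DUSP5, 1.13 for SPRY4 and 0.75 for DUSP8. Of the other 4 genes, DUSP1 and SPRY2 were higher in H than in Q in H2O2, with log2 ratios of −0.96 and −0.41, and higher in Q than in H in mock, with 0.35 and 0.36. The gap between letters was thus wider in H2O2 than in mock for DUSP1, and slightly so for SPRY2. DUSP6 had 0.10 in H2O2 and 0.53 in mock, and DUSP16 had 0.03 in H2O2 and −0.18 in mock. The ratio within letter H and that between the mock libraries share mock H, so they are not independent of each other. The summed hepatocyte markers were higher in letter H than in letter Q in both groups, with 21589 and 12405 CPM in H2O2 H and Q, against 18609 and 6012 CPM in mock H and Q. Each marker of the list followed the sum except TTR, at 14.8 and 20.5 CPM in H2O2 H and Q, against 17.7 and 25.9 CPM in mock H and Q. The part of these markers in the result was not tested.

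**Figure D2:**
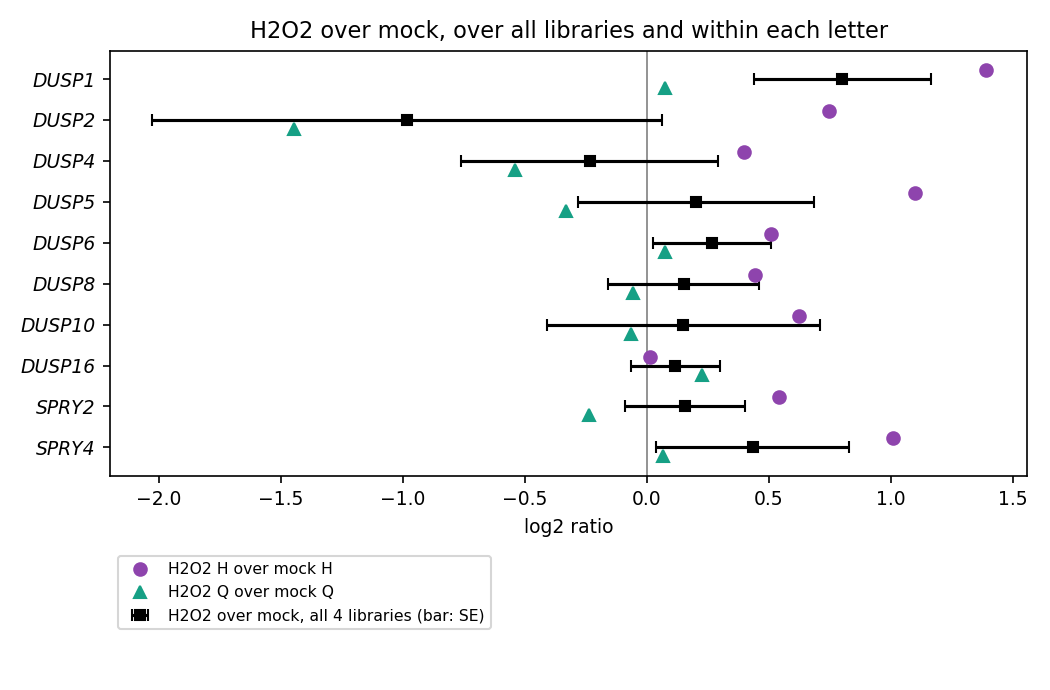
Each row is a gene and the horizontal axis is a log2 ratio of H2O2 over mock: black squares with SE bars for the fit over all 4 libraries, purple circles within letter H and green triangles within letter Q. All circles lie right of 0, while the triangles of 6 genes lie left of it, and the widest bar is that of DUSP2 (SE 1.04).

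The direction of 7 of the 10 genes depended on which library was left out. Without H2O2 H 8 of 10 were higher in H2O2, with a median log2 fold change of 0.23, and without H2O2 Q 7 of 10 were (median 0.15). Without mock H 3 of 10 were higher (DUSP1, DUSP6 and DUSP16), with a median of −0.10. Without mock Q all 10 were higher, with a median of 0.85. Over all genes tested the medians were −0.04 without H2O2 H, −0.05 without H2O2 Q, −0.03 without mock H and 0.000816 without mock Q. DUSP1, DUSP6 and DUSP16 were above 0 in each of these fits, at 0.24 to 1.21, 0.03 to 0.55 and 0.03 to 0.21. In fits with 1 library left in a group, that library is assumed to vary like the other group, and the lowest adjusted p of any of the 10 genes was 0.398 (edgeR, without mock Q).

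**Figure D3:**
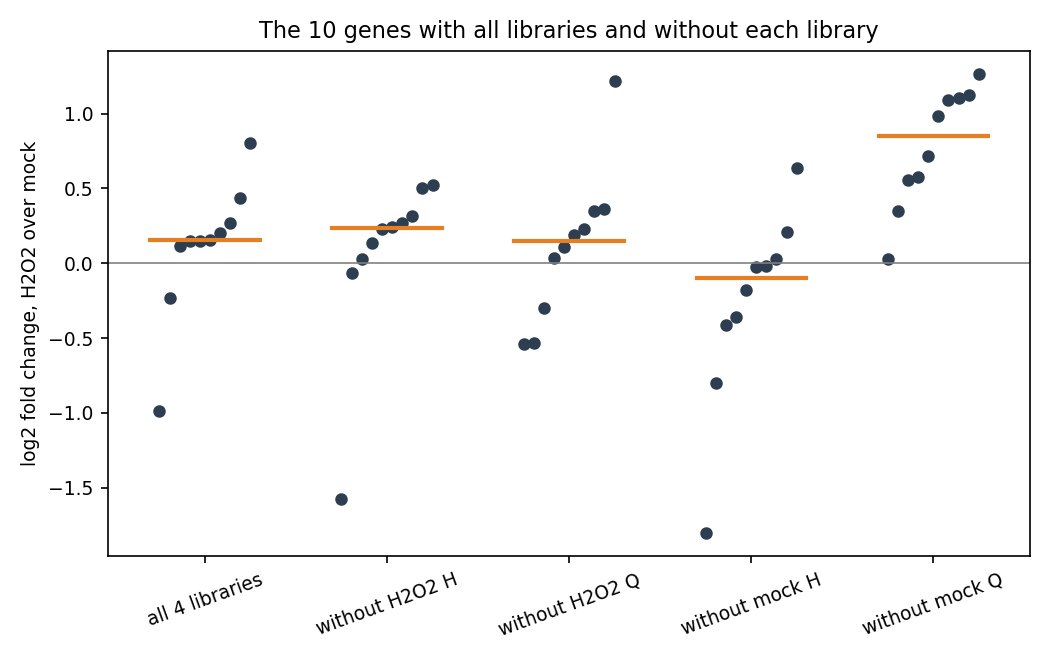
Each column holds the log2 fold change of H2O2 over mock for the 10 genes, sorted within the column, with all 4 libraries and with each library left out in turn; orange lines are medians. The median is 0.15 with all libraries, −0.10 without mock H and 0.85 without mock Q.

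Levels between genes were compared as TMM-normalised CPM per kilobase of transcript, with lengths from GENCODE v29. The order depends on the length of the row used. A SPRY4 row of 2379 bases, against 4938 in the row used, held 98.65% to 98.94% as many reads. For DUSP6 a row of 1959 bases, against 4400, held 82.14% to 85.69%. The deposited FPKM gave another order. DUSP8 was at 63.0 and 100 in H2O2 H and Q, against 38.7 and 81.9 in mock H and Q. SPRY2 was lower in each, at 56.8 and 44.5, against 35.3 and 50.4. The top of the order differed too. In FPKM DUSP16 was at 160 and 188 in H2O2 H and Q, against 145 and 153 in mock H and Q. DUSP1 was at 260 and 155, against 101 and 141, and DUSP5 at 167 and 186, against 72.6 and 237. In CPM per kilobase averaged over the 4 libraries, DUSP5 (31.4) and DUSP1 (30.4) were the most abundant of the 10 genes. They were followed by SPRY2 (18.9), DUSP16 (15.5), DUSP6 (11.98), SPRY4 (5.63), DUSP4 (4.73), DUSP10 (4.63), DUSP8 (4.08) and DUSP2 (0.0889). DUSP5 and DUSP1 stood above 85.03% and 84.5% of the genes tested that had a length, and DUSP2 above 6.79%. The order of DUSP5 and DUSP1 turned between libraries, and DUSP5 ranged from rank 4 in mock H to rank 1 in mock Q and H2O2 Q. By the lengths used, the ranges of SPRY2 and DUSP16 overlapped and DUSP6 lay below both in every library. SPRY4, DUSP4, DUSP10 and DUSP8 overlapped with each other, while SPRY2 held rank 3 and DUSP6 rank 5 in each of the 4 libraries. Summed over the 10 genes, the level per kilobase was 152 and 130 in H2O2 H and Q, against 86.1 and 141 in mock H and Q. The 4 nuclear inducible phosphatases gave 87.6 and 65.7 in H2O2 H and Q, against 37.5 and 75.7 in mock H and Q, and the 3 phosphatases of JNK and p38 gave 23.4 and 27.2, against 21.0 and 25.3.

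Among the kinases on which these phosphatases act, the ERK gene MAPK3 was higher in library H than in library Q of both groups, at 61.3 and 35.5 CPM in H2O2 H and Q, against 51.3 and 29.5 CPM in mock H and Q (0.26, SE 0.39, edgeR adjusted p = 0.88). The JNK genes MAPK8 and MAPK9 had fold changes of 0.32 (SE 0.20) and 0.38 (SE 0.23), and the p38 gene MAPK14 had −0.01 (SE 0.22), with a sign that turned under 6 of 11 other settings. None of these 4 passed the test.

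Of the other genes of the pathway 0 passed over all genes (edgeR, lowest adjusted p = 0.721 in these lists). The list of ERK output genes other than the 10 had 19 of 27 tested members higher and a median of 0.25. Its median H2O2 over mock ratio was 0.54 in letter H and 0.15 in letter Q, mock Q exceeded mock H by 1.5-fold or more in 16 of 27 (15.3% of all genes), and mock H was the lowest library in 17 of 27 (26.2%). The largest differences of this list were in the transcription factor FOS (1.3, SE 0.58), the protease inhibitor TFPI2 (−1.26, SE 1.16) and the urokinase receptor PLAUR (−1.01, SE 0.53). FOS measured 49.8 and 16.3 CPM in H2O2 H and Q, against 16.7 and 10.1 CPM in mock H and Q. It was higher in letter H than in letter Q in both groups, and its fold change was 0.28 without H2O2 H and 1.90 without H2O2 Q.

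**Figure D4:**
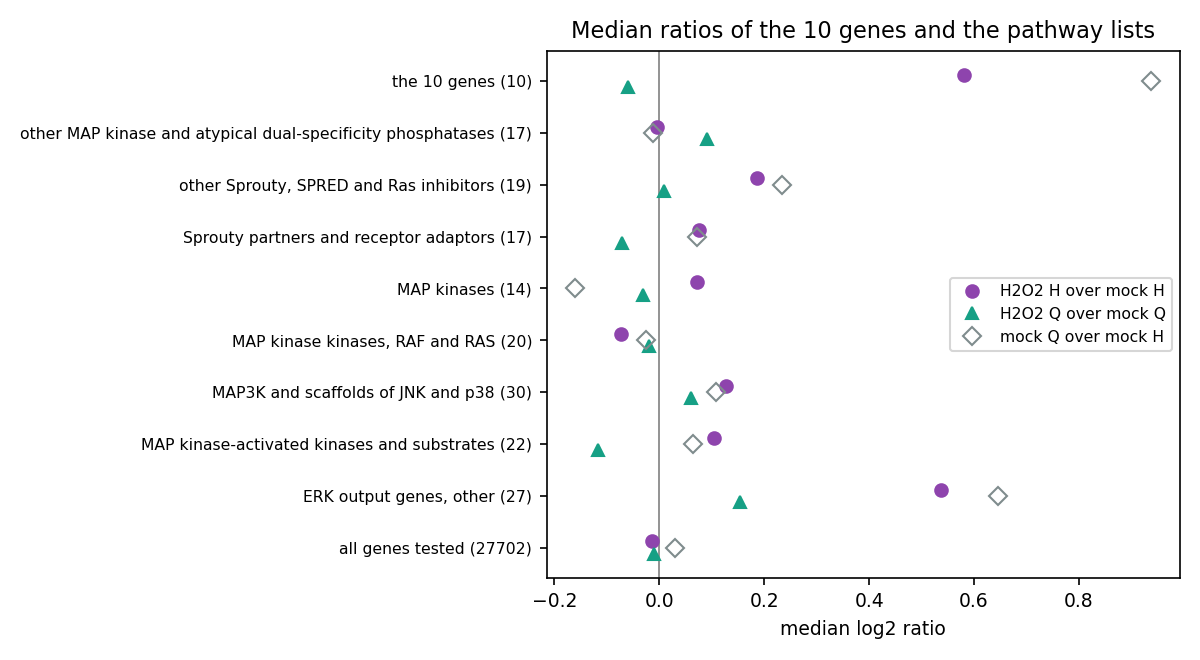
Rows are the 10 genes, the pathway lists with the number of genes tested, and all genes tested; the axis is a median log2 ratio, with purple circles for H2O2 H over mock H, green triangles for H2O2 Q over mock Q and open diamonds for mock Q over mock H. The 10 genes (0.94) and the other ERK output genes (0.65) have diamonds far right of 0, and the diamonds of the other lists lie between −0.16 and 0.23.

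Stress kinase regulators held the largest differences outside the ERK outputs. In the list of MAP3K genes and scaffolds 21 of 30 were higher, with a median of 0.07. GADD45B, a stress-induced activator of MAP3K4, measured 40.5 and 51.1 CPM in H2O2 H and Q, against 18.2 and 21.3 CPM in mock H and Q. Both H2O2 values were well above both mock values, with log2 ratios of 1.15 in letter H and 1.26 in letter Q, and a fold change of 1.21 (SE 0.22, edgeR unadjusted p = 0.00235). The adjusted p was 0.721 by edgeR, and over the 11 other settings it ran from 0.0115 (DESeq2) to 1 (edgeR without H2O2 H). Its relative GADD45G differed by 1.21 (SE 0.47) at lower levels, 2.73 and 5.27 CPM in H2O2 H and Q, against 1.22 and 2.23 CPM in mock H and Q, and the kinase gene ZAK by 0.51 (SE 0.20).

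Other dual-specificity and MAP kinase tyrosine phosphatases, with 17 of 20 tested, were divided between 9 higher and 8 lower (median 0.01). DUSP15 had the largest difference (0.80, SE 0.23), at 16.2 and 13.2 CPM in H2O2 H and Q, against 8.06 and 8.88 CPM in mock H and Q, followed by DUSP18 (−0.58, SE 0.24) and PTPRR (−0.43, SE 0.67). The remaining Sprouty, SPRED and Ras inhibitors had 11 of 19 higher (median 0.07), led by the Ras GTPase-activating protein gene RASA3 (0.74, SE 0.58), with SPRED3 at −0.41 (SE 0.40) and RASAL2 at −0.40 (SE 0.49). Among Sprouty partners and receptor adaptors 9 of 17 were higher (median 0.05), with the ubiquitin ligase NEDD4 at 0.49 (SE 0.29), the kinase TESK1 at −0.46 (SE 0.26) and the RAS exchange factor SOS2 at −0.45 (SE 0.20).

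MAP kinase genes had 6 of 14 higher (median −0.02), with MAPK15 at −1.07 (SE 0.78), the low MAPK10 at 0.84 (SE 0.61) and the p38 family gene MAPK13 at −0.84 (SE 0.31). MAPK15 was low, with 0.206 and 0.669 CPM in H2O2 H and Q, against 0.444 and 1.40 CPM in mock H and Q, and its fold change was −2.15 without H2O2 Q and −0.0181 without mock Q. MAPK13 measured 28.4 and 23.3 CPM in H2O2 H and Q, against 58.0 and 34.3 CPM in mock H and Q. The kinases above them had 9 of 20 higher (median −0.01), with the p38 activator MAP2K3 at 0.57 (SE 0.23), the scaffold KSR2 at −0.43 (SE 0.50) and ARAF at −0.35 (SE 0.18). MAP kinase-activated kinases and substrates were divided at 11 of 22 (median −0.01), with the transcription factor MEF2C at −0.88 (SE 0.29), the kinase RPS6KA5 at 0.51 (SE 0.29) and the kinase MAPKAPK2 at −0.38 (SE 0.18).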

How the data were processed

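RNA of 4 Huh7 libraries, 2 per group, was sequenced after preparation with a TruSeq RNA kit, per the labels' protocols. The submitters' processing notes name TopHat 1.3.3, Bowtie 0.12.2, Cuffdiff and CASAVA, and the builds hg19, GRCh37 and mm8, without roles. How reads were counted, on which annotation and whether by strand is not given in the sources used here. Each deposited table listed 58146 transcript models with read counts and FPKM, per the file headers. The authors' alignment summaries gave other numbers, those of input and mapped mates. The read counts with 1 row per gene totalled 103851326 to 113082498 per library, above the mapped mates, so reads entered more than 1 feature.

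For each gene the row with the highest read total over the 4 libraries was used, which avoids adding isoform rows that share reads. Genes with at least 10 reads in at least 2 libraries were tested. Levels are CPM after TMM scaling (factors 0.903, 1.06, 0.932 and 1.12 in H2O2 H, H2O2 Q, mock H and mock Q). The test of H2O2 against mock was edgeR 4.0.16's quasi-likelihood F-test, two-sided, on treatment alone, with Benjamini-Hochberg adjustment over all 27702 genes (residual degrees of freedom 2, prior 3.21, common coefficient of biological variation 0.309). DESeq2 1.42.0 and limma 3.58.1 on log2(FPKM + 1) were alternatives. Ratios within a letter used CPM plus 0.1. An exact permutation test of 2 against 2 libraries cannot go below p = 0.333. The deposited FPKM did not follow count over length and served for alternatives alone.

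The 10 genes, the 8 pathway lists and the tests were chosen with earlier results of these data known. Named genes were the 10, the 3 largest absolute fold changes of each list and 5 target kinases, of which 1 is not reported here. Genes of like pattern were not sought, since 4 libraries are too few.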

Additional observations from a re-analysis of the deposited data

Results flagged for a closer look

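For 6 of the 10 genes the H2O2 library lay above mock within letter H and below it within letter Q, as for 16.6% of all genes tested. With 1 library a side the difference between the letters was not tested. The log2 ratio within letter H exceeded that within letter Q by 2.19 for DUSP2, by 1.43 for DUSP5, by 0.936 for DUSP4, by 0.778 for SPRY2, by 0.688 for DUSP10 and by 0.497 for DUSP8. DUSP2 rests on 4 to 43 reads per library. These genes were set apart by sign alone, and the ratios of DUSP8 and DUSP10 within letter Q were only −0.06 and −0.07. Among the others the difference between letters was 1.31 for DUSP1, 0.94 for SPRY4, 0.433 for DUSP6 and −0.213 for DUSP16.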

How the results depend on the processing

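Under 11 other settings, 98 of 109 values of the 10 genes kept the direction of the reported fit, 11 were reversed and 0 passed 5%. DUSP2 gave no value with the FPKM filter. Apart from that of DUSP4 with limma, every reversal came from a fit that left out a library. The remaining settings refit the same 4 libraries, so their values are not separate evidence on direction. Without single libraries the ranges were −0.42 to 1.09 for DUSP10, −1.80 to 1.27 for DUSP2, −0.80 to 0.72 for DUSP4, −0.36 to 1.12 for DUSP5, −0.18 to 0.57 for DUSP8, −0.0676 to 0.36 for SPRY2 and −0.0248 to 1.10 for SPRY4, with a median over the 10 of −0.10 to 0.85. They were −0.99 to 0.14 for KSR2, −0.20 to 0.20 for MAPK14, −0.19 to 0.71 for MAPK3, −1.56 to 0.19 for PTPRR, −0.90 to 0.31 for RASAL2, −0.83 to 0.20 for SPRED3 and −3.54 to 0.35 for TFPI2. With the sign kept, they were 0.28 to 1.90 for FOS, −2.15 to −0.0181 for MAPK15, −1.71 to −0.42 for PLAUR, 0.26 to 1.51 for RASA3, 0.21 to 0.83 for NEDD4, −0.71 to −0.16 for TESK1, 0.68 to 1.71 for GADD45G, −1.17 to −0.41 for MAPK13, 0.34 to 0.78 for MAP2K3, 0.19 to 0.46 for MAPK8 and 0.18 to 0.57 for MAPK9. DUSP4 turned to 0.14 with limma on log2(FPKM + 1). MAPK14 turned to 0.0279 with counts summed over rows, 0.0185 with RLE size factors, 0.0186 with DESeq2 and 0.24 with limma. The cause was not tested.

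Against 0 genes in the reported fit, DESeq2 called 33 higher and 105 lower, and with no filter 9 were lower. Without single libraries 0 to 1 higher and 0 to 10 lower genes were called. In the pathway lists DESeq2 called 1 gene higher, GADD45B (1.24, adjusted p = 0.0115). The letters share no stated origin, though across 27702 genes the same-letter deviations from group means correlated at 0.527. With the letter as a replicate block 6 higher and 36 lower genes were called, none among the 10 (DUSP1 0.73, adjusted p = 0.262). With 4 libraries and 2 residual degrees of freedom, a p that misses the threshold does not show that levels were alike.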

Other observations

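DUSP9, PEBP1 and ERRFI1, named after their values were seen, encode other inhibitors of the pathway. Averaged over the libraries, each was more abundant per kilobase than any of the 10 genes. So were DUSP3 (40.9) and STYXL1 (33.8) of the list of other phosphatases, also named after their values were seen. DUSP9, a cytoplasmic ERK phosphatase, averaged 56.6 CPM per kilobase over the 4 libraries. It measured 182 and 92.0 CPM in H2O2 H and Q, against 179 and 65.0 CPM in mock H and Q, and so was higher in letter H in both groups (log2 fold change 0.17, SE 0.57, edgeR adjusted p = 0.951). The RAF inhibitor gene PEBP1 averaged 177 CPM per kilobase, with 332 and 272 CPM in H2O2 H and Q, against 351 and 249 CPM in mock H and Q (0.01, SE 0.26). ERRFI1, an inhibitor of EGF receptor kinases, averaged 68.2 CPM per kilobase, with 281 and 195 CPM in H2O2 H and Q, against 231 and 139 CPM in mock H and Q (0.36, SE 0.34). The ETS factor gene ETV5, an ERK output also named after its value was seen, measured 82.4 and 56.8 CPM in H2O2 H and Q, against 28.7 and 47.0 CPM in mock H and Q (0.88, SE 0.33, adjusted p = 0.721), and IER3, chosen likewise, 42.1 and 28.5 CPM, against 15.3 and 25.2 CPM (0.80, SE 0.34). For ETV5 and IER3, as for DUSP1, mock H was the lowest and H2O2 H the highest library.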
